A study of Sus scrofa with 2 samples.

Results

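Pig chromosome 3 was followed along the whole stretch covered by probes on 2 arrays for comparative genomic hybridization, 1 of an angiosarcoma-like liver tumor and 1 of non-tumor control liver. All probes that the array design places on chromosome 3 were taken, which are 9622 of the 168312 probes on the 18 autosomes of each array, and all 9622 carry the name of this chromosome in their probe names as well. The probes are 45 bases long with a median spacing of 10175 bp, and they run from position 926 to position 123596695 of a genome build that the files do not name. The longest distance between the starts of neighbouring probes is 410700 bp, and the bases between these probes run from 122141671 to 122552325, near the far end. Values were formed from 9621 probes on the tumor array, where 1 spot carried an outlier flag, and from 9622 on the control array.

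The tumor came from the liver of a female pig, resected 10 months after diethylnitrosamine (DENA) at 200 mg/kg. DENA is a liver carcinogen that is turned by liver enzymes into an agent that alkylates DNA, and angiosarcoma is a malignant tumor of cells that line blood vessels. The control was female liver tissue whose disease state is given as control. Its label repeats the DENA treatment text of the tumor, and whether the control animal was treated is not settled by it. Both arrays set tissue DNA, labelled with Cy3, against DNA of female reference liver, labelled with Cy5, and whether both references came from the same pig is not given. The DNA was isolated from micro-dissected tissue embedded in paraffin, and the tumor array stands for a single tumor. With 1 array per tissue there are no replicates, no test between the tissues can be run, and their number limits the precision. The arrays were on separate slides, and an effect of the slide cannot be told apart from one of the tissue.

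In comparative genomic hybridization, the log2 ratio of tissue over reference at a probe follows the relative number of DNA copies there. A loss of 1 of 2 copies in every cell gives a log2 ratio of -1, and a gain of 1 copy on top of 2 gives 0.585. The share of cells that carry a change and the number of copies changed per cell cannot be told apart in bulk DNA. Chromosome 3 of the pig corresponds to parts of human chromosomes 2, 7 and 16. RefSeq places 1310 protein-coding genes on it in the Sscrofa11.1 assembly. The genes placed there include the oncogenes MYCN, ALK and REL, the chromatin regulators CREBBP and DNMT3A, the mTOR regulator TSC2, and APOB, ABCG5 and ABCG8 of lipid and sterol transport. The arrays' files pair no probe with a gene, and whether the probe positions are those of that assembly is not given, so no gene is given a value. Genes of that assembly reach position 132819554 on chromosome 3, beyond the last probe. Ends and lengths of the chromosome given here are therefore those of the stretch that the probes cover.

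Probes on chromosome 3 were brighter than those of the autosomes at large. On the tumor array the median background-subtracted signal was 82.7 in the tumor channel and 152 in the reference channel, against 68.5 and 117 over all autosomal probes. The control array had 60.5 in the tissue channel and 118 in the reference channel, against 48.6 and 92.3. The tissue signal was well above background for 83.6% of the chromosome's probes in the tumor and for 81.2% in the control tissue. Over all autosomal probes these shares were 79.8% and 76.3%. For 524 probes of the tumor array and 499 of the control array the scanner software had replaced at least 1 of both signals, which was not significantly above background, by a surrogate value. No such count over all autosomal probes is given. Noise between neighbouring probes, measured as the derivative log2 ratio spread along this chromosome, came to 0.387 (tumor) and 0.397 (control).

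Over the whole chromosome, tumor DNA lay slightly below its reference. The median log2 ratio over probes was -0.10 in the tumor (SD over 9621 probes 0.50) and -0.04 in the control (SD over 9622 probes 0.49). The quartiles of the tumor probes reached from -0.39 to 0.21 and those of the control probes from -0.27 to 0.24, so the distributions of single probes overlapped for the most part. The median of the control array was 0.02, on the other side of 0, when each array was centred on the mode of its log2 ratios, while the median of the tumor array stayed below 0 at -0.09. From the log ratios as deposited the tumor median was -0.06, and with normexp background correction the control median was -0.08. With the trend of the log2 ratios with local probe brightness, described further on, removed, the medians were -0.01 in the tumor and -0.003 in the control. Neither median came near the -1 of a copy lost in every cell.

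The chromosome was then cut into windows of 1 Mb, 124 in all with a median of 79 probes, and each was given the median of its probes. The tumor windows ranged from -0.54 to 0.37 with a median of -0.10 (SD over 124 windows 0.20). The control windows ranged from -0.26 to 0.20 with a median of -0.02 (SD over 124 windows 0.09). The tumor profile was thus about as wide on the lower side as on the upper side of its median, and the control profile was flatter, also with normexp, where the SD over windows was 0.23 in the tumor and 0.16 in the control. With the brightness trend removed, these SDs were 0.08 and 0.06. On each array 80 of the 124 windows, or 64.5%, lay below 0, where 43.9% (tumor) and 46.2% (control) of the 2145 autosomal windows did so. For the control this share on chromosome 3 was 36.3% with centring on the mode and 47.6% with window means in place of medians. No autosomal share is given beside these 2 values.

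On the tumor array, 24 windows of chromosome 3, or 19.4%, lay at or below -0.25, against 12.1% of all autosomal windows. At or above 0.25 lay 6 windows, or 4.84%, against 9.46% of all autosomal windows. The split of 24 low to 6 high windows was 35 to 2 with normexp background correction and 23 to 6 with centring on the mode. It was 1 to 0 with the trend of local brightness removed, and 5 to 0 in windows of 5 Mb, of which there are fewer. On the control array 2 windows lay at or below -0.25, where 0.326% of all autosomal windows did, and 0 lay at or above 0.25, where 0.699% did. This split was 15 to 0 with normexp and 0 to 1 with centring on the mode. For the splits under other settings no autosomal share is given, so they do not show whether chromosome 3 stands apart. Of the 24 low tumor windows, 12 were in the first 20 Mb, 5 between 20 and 40 Mb, 1 between 40 and 100 Mb and 6 beyond. Of the 6 high windows, 5 lay between 40 and 100 Mb and 1 beyond.

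**Figure D1:**
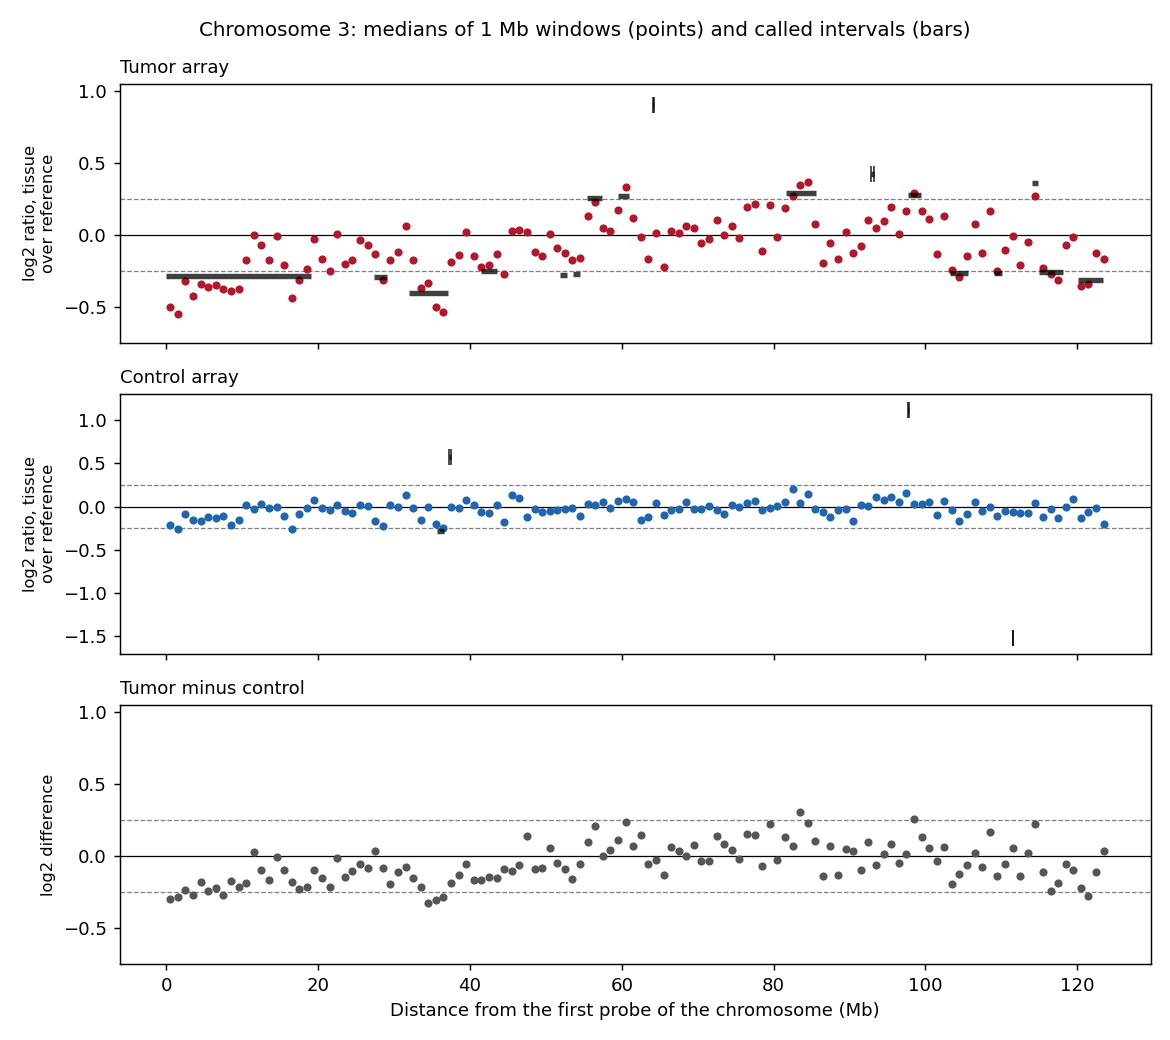
Median log2 ratio of tissue over reference in 124 windows of 1 Mb (points) along chromosome 3 on the tumor array, on the control array and as tumor minus control, with distance from the first probe in Mb on the horizontal axis. Black bars are called intervals at their mean log2 ratio, with upright marks at intervals under 0.5 Mb, and dashed lines mark -0.25 and 0.25. The tumor windows dip to -0.54 at the left end and rise to 0.37 past the middle, while the control windows stay between -0.26 and 0.20.

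In blocks of 20 Mb, both ends of the chromosome were low and the stretch past the middle was high. In the first block the median was -0.29 in the tumor (SD over 1387 probes 0.43) and -0.11 in the control (SD 0.43). In the second it was -0.20 in the tumor and -0.05 in the control. In the third it was -0.07 and -0.01, and in the fourth 0.03 and -0.01. In the fifth block, from 80 to 100 Mb, both arrays had their highest median, 0.08 in the tumor (SD over 1598 probes 0.51) and 0.03 in the control (SD 0.53). In the sixth the medians turned down to -0.10 and -0.05, and in the last 3.597 Mb they were -0.29 (SD over 231 probes 0.46) and -0.09 (SD 0.48). The range of block medians was smaller on the control array. The tumor array lay below the control array by 0.18 in the first block and by 0.20 in the last one, and above it by 0.05 in the fourth and the fifth.

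The channels themselves changed along the chromosome in the opposite sense to the log2 ratios. On the tumor array the median reference signal was 253 in the first block, 88.4 in the fifth and 233 in the last one. The tumor signal was 114, 56.2 and 116 in the same blocks. On the control array the reference signal was 191, 73.8 and 180, and the control tissue signal 93.2, 38.7 and 90.9. The share of probes well above background in the tumor channel was 91.5% in the first block and 78.2% in the fifth. Blocks with a low log2 ratio were therefore bright in both channels of both arrays, and the block with the highest log2 ratio was the dimmest.

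**Figure D2:**
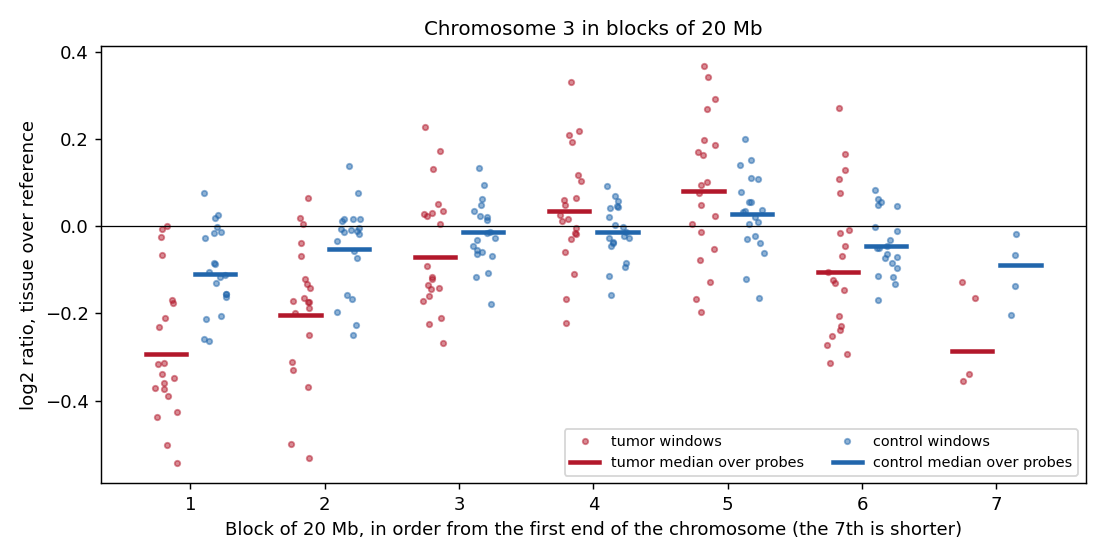
Log2 ratio of tissue over reference in the 7 blocks of 20 Mb in order along chromosome 3 (the last is 3.597 Mb), with the medians of 1 Mb windows as points and the median over all probes of the block as a line, tumor in red and control in blue. The tumor line moves from -0.29 in the first block to 0.08 in the fifth and back to -0.29 in the last, and the control line moves from -0.11 to 0.03 and back to -0.09.

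The lowest tumor window lay near the first end of the chromosome, at chr3:1000001-2000000, with a median of -0.54 (SD over 70 probes 0.34). The same window was the lowest of the control array, at -0.26 (SD 0.28). The window before it, at chr3:1-1000000, had -0.50 in the tumor and -0.21 in the control. From there the tumor windows stayed below -0.31 up to position 10000000, between -0.43 and -0.32, and the control windows of this stretch lay between -0.21 and -0.08. All 11 windows up to position 11000000 were below 0 on the tumor array, the longest such run there, and the first 10 were on the control array. The first 5 Mb had a median of -0.44 in the tumor (SD over 372 probes 0.41) and -0.18 in the control. This was the lowest of the 18 autosomes on the tumor array, where chromosomes 12 and 2 had -0.44 and -0.43 and so differed by far less than the window noise of 0.05, and the second lowest on the control array, after -0.21 on chromosome 2. The last 5 Mb of chromosome 3 were at -0.20 in the tumor and -0.03 in the control, in 12th place from the lowest on both.

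Low tumor windows followed each other from 33 to 37 Mb as well, beginning with -0.37 at chr3:33000001-34000000. The window at chr3:34000001-35000000 had -0.33 in the tumor (SD over 74 probes 0.43) and -0.01 in the control (SD 0.50), which made it the window with the most negative difference, at -0.32. The windows at chr3:35000001-36000000 and chr3:36000001-37000000 had -0.50 and -0.53 in the tumor and -0.20 and -0.25 in the control. The fifth lowest tumor window, chr3:16000001-17000000, had -0.44 there and -0.26 on the control array. Over the 24 low tumor windows the control array lay between -0.26 and -0.01, with a median of -0.16.

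The high windows of the tumor array were fewer and shallower. The highest was chr3:84000001-85000000, at 0.37 (85 probes, SD 0.52), where the control array had 0.14. Beside it, chr3:83000001-84000000 had 0.34 against 0.04, which was the most positive difference, 0.31. The windows at chr3:60000001-61000000 and chr3:98000001-99000000 had 0.33 and 0.29 in the tumor and 0.09 and 0.03 in the control. The fifth, chr3:114000001-115000000, had 0.27 against 0.05, and the tumor windows on both sides of it were below 0, at -0.05 and -0.23. The highest control window was chr3:82000001-83000000, with 0.20, and the tumor had 0.27 there. Over the 6 high tumor windows the control array lay between 0.03 and 0.20.

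Tumor minus control ranged from -0.32 to 0.31 over the 124 windows, with a median of -0.06 (SD 0.14). It was below 0 in 80 windows, or 64.5%, where 48% of all autosomal windows were below 0. At or below -0.25 lay 8 windows, or 6.45%, against 3.82% of all autosomal windows, and at or above 0.25 lay 2, or 1.61%, against 2.66%. The longest run of negative differences had 19 windows, from 28000001 to 47000000, and the longest run of positive ones had 8, from 55000001 to 63000000. The median difference was -0.11 with centring on the mode and -0.03 from the log ratios as deposited. Removing the trend with local brightness, described further on, from both arrays brought it to -0.02. With that trend removed, 0 windows were at or below -0.25 and 0 at or above 0.25.

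Intervals were called with a score, the summed log2 ratios of n probes divided by the noise times the root of n. To be called, an interval had to reach a score of 6, hold 3 or more probes and have a mean whose size was 0.25 or more. Chromosome 3 of the tumor held 17 such intervals, 10 losses and 7 gains, with a summed length of 50.03 Mb. The losses held 31.4% of the chromosome's probes, against 18.5% of all autosomal probes, and the gains 8.73%, against 14%. The control array had 4 intervals covering 1.36 Mb, 2 losses with 0.883% of the probes and 2 gains with 0.270%, against 0.298% and 5.28% of all autosomal probes. With probes well above background in both channels, 18 of 24 tumor intervals were losses, and with the trend of local brightness removed 3 of 3 were, covering 1.28 Mb. With a limit of 0.1 on the mean, 6 of 12 tumor intervals were losses. With normexp, 17 of 19 tumor intervals and 21 of 21 control intervals were losses. With centring on the mode, 11 of 18 tumor intervals were losses, and the 7 control intervals were all gains. No share over all autosomes is given under these other settings, so these counts do not show whether chromosome 3 stands apart.

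The loss with the highest score, 26.1, covered chr3:926-19048570 with a mean of -0.29 (SD over 1335 probes 0.43). Of its probes, 1028 were below 0 on the tumor array. It was not even along its length. Of its 19 windows, 12 were at or below -0.25 and 18 below 0, and the windows at chr3:11000001-12000000 and chr3:14000001-15000000 inside it were at 0.0002 and -0.0050. On the control array the same 1335 probes had a mean of -0.07 (SD 0.42). The second loss by score (20.4) was chr3:32015176-37162845. Its mean was the most negative among the losses, at -0.40 (413 probes, SD 0.38), and the control array had -0.11. Its 4 whole windows lay between -0.53 and -0.33 on the tumor array.

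Toward the far end, a loss at chr3:120100151-123395045 scored 11.4 and averaged -0.32 (209 probes, SD 0.45), where the control array averaged -0.07. A loss at chr3:114929401-118120695 scored 10.9 and averaged -0.26 (285 probes, SD 0.45), where the control array averaged -0.04. The other 6 losses had between 82 and 192 probes and means between -0.29 and -0.25. The probes of the 10 tumor losses had control means between -0.16 and -0.02. The limit on the mean decided many of these calls. Applied after the search, it left 4 intervals on the tumor array, of which 1 was a loss, 6.95 Mb in all, because wide intervals with a mean under 0.25 in size were then dropped whole.

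Among the tumor gains, the longest lay at chr3:81676576-85577345, scoring 13.3 and averaging 0.29 (330 probes, SD 0.52), where the control array averaged 0.12. The gain with the largest mean, 0.90 (SD over 8 probes 0.87), was short, at chr3:64172801-64252395. Its 8 probes reached from -0.12 to 2.31 on the tumor array, and the highest of them had a background-subtracted signal of 11.1 in the tumor and 0.23 in the reference. The control array had a mean of 0.26 over the same probes, and 4 of the 8 were below 0. A gain of 40 probes at chr3:92845026-93286295 had a mean of 0.42 (SD 0.43), and the control array had -0.02 (SD 0.53) there. The tumor gains were dim. In the 7 gains the median reference signal of the tumor array was between 41.4 and 72.0, and in the 10 losses between 210 and 324.

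The control interval with the highest score, 6.51, was a gain of 6 probes at chr3:97662426-97833595 with a mean of 1.12 (SD 0.55). Of these probes, 3 were well above background in the control tissue, and the tumor array had a mean of -0.02 (SD 0.98). The control loss with the largest mean, -1.51 (SD over 3 probes 0.72), lay at chr3:111500426-111519895. Its probes had -1.85, -2.00 and -0.69 on the control array and 0.30, 0.37 and 0.22 on the tumor array. These 3 probes were called for their low control values, so the gap between the arrays there is no separate result. The reference signals of the control array were 28.3, 30.5 and 27.8, and the control tissue signals 2.22, 3.91 and 8.75, none of them well above background. The wider control loss, at chr3:35638401-36583795, had a mean of -0.28 (SD over 82 probes 0.27), and the tumor array had -0.59 (SD 0.26) over the same probes, all 82 of them below 0. The remaining gain, at chr3:37213676-37442195, had 0.57 (SD over 20 probes 0.52) on the control array and 0.14 on the tumor array.

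Because bright stretches were low on both arrays, the log2 ratios were set against local brightness, which for each probe is the other array's reference signal (log2), averaged over probes within 0.25 Mb on each side of a probe. Across the 124 windows of chromosome 3 the Pearson correlation was -0.90 in the tumor and -0.73 in the control (Spearman -0.89 and -0.69), where neighbouring windows share probes in the brightness measure and are not independent. Over all 2145 autosomal windows it was -0.92 and -0.77. The slope was -0.22 log2 units per doubling of brightness in the tumor and -0.08 in the control. Of the 31 brightest windows of chromosome 3, 20 were at or below -0.25 on the tumor array, with a median of -0.32. Of the 31 dimmest, 0 were, and these had a median of 0.13 and held all 6 windows at or above 0.25. The control array's brightest 31 had a median of -0.12 and the dimmest 31 a median of 0.05.

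**Figure D3:**
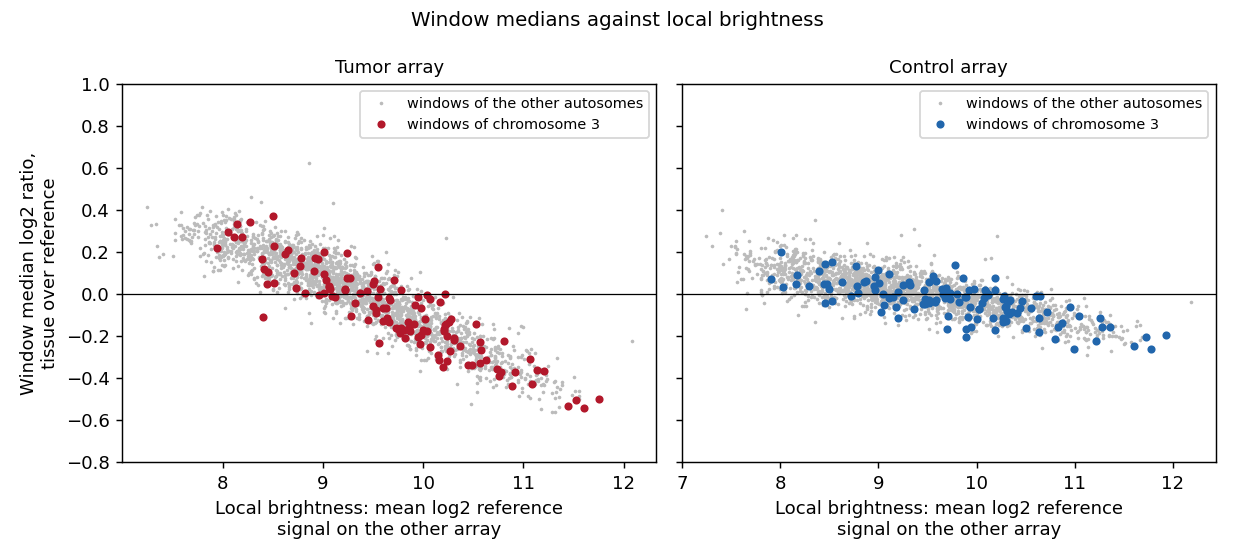
Median log2 ratio of each 1 Mb window against its local brightness (log2 reference signal of the other array, averaged nearby), for the tumor array (left) and the control array (right). Windows of chromosome 3 are coloured and those of the other autosomes grey. The chromosome 3 windows follow the grey band on both arrays, with a slope of -0.22 in the tumor and -0.08 in the control.

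The trend was learned as a lowess curve on the other 17 autosomes and subtracted. The chromosome median then moved from -0.10 to -0.01 on the tumor array and from -0.04 to -0.003 on the control array. The SD over windows became 0.08 in the tumor and 0.06 in the control. Of the 24 low tumor windows, 0 remained at or below -0.25, with values from -0.20 to 0.02 and a median of -0.07, and of the 6 high ones 0 remained, with values from 0.02 to 0.20. The loss at chr3:926-19048570 had a mean of -0.04 after this step on the tumor array and the control array had 0.04, and the loss at chr3:32015176-37162845 had -0.06 and 0.04. The first 5 Mb kept -0.09 in the tumor and -0.03 in the control, and the last block -0.10 and -0.004. Beyond this subtraction, the part of local brightness in the low and high windows was not tested.

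**Figure D4:**
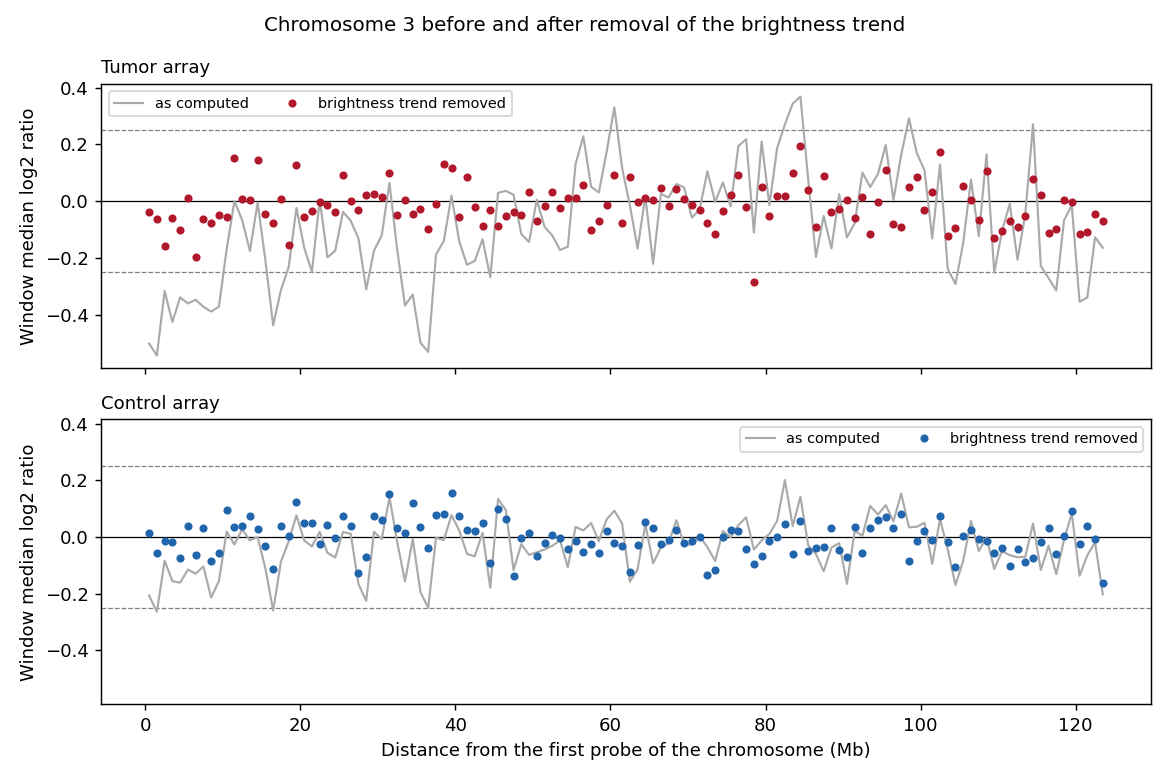
Window medians along chromosome 3 as computed (grey line) and with the brightness trend of the other autosomes removed (points), for the tumor array above and the control array below, with dashed lines at -0.25 and 0.25. After the removal 1 tumor window, at -0.29, lies past a dashed line and no control window does.

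The single window past -0.25 after the removal was chr3:78000001-79000000, which had been at -0.11 in the tumor and -0.04 in the control, and was then at -0.29 and -0.09. It was dim, with a brightness of 8.41, and its -0.11 was the lowest value among the 31 dimmest windows, whose median was 0.13. An interval that overlaps it was called at chr3:77730526-78477970, scoring 9.03 and averaging -0.48 after the removal (57 probes, SD 0.72). Before the removal the mean of these probes was -0.22 on the tumor array, where 30 of 57 were below 0, and 0.06 on the control array. Of the 57, 26 were well above background in the tumor and 27 in the control tissue, and 16 had a surrogate signal on the tumor array. A further loss was called at chr3:2391126-2900845, with a mean of -0.39 after the removal (SD over 39 probes 0.51) and of -0.55 before it, against 0.05 before it on the control array. There 36 of the 39 probes were below 0 in the tumor and 25 in the control, and 33 were well above background in the tumor. The call itself favours tumor probes below 0. The last of the 3 tumor intervals, chr3:123366326-123385795, rested on 3 probes, at -2.10, -1.91 and -1.31 before the removal, which had 0.60, -2.41 and 0.21 on the control array. Of these 3 probes, 1 was well above background in the tumor and 1 in the control tissue. The control array's loss of 3 probes at chr3:111500426-111519895 was called again, with a mean of -1.54, together with a gain of 4 probes at chr3:118638651-118690495 with a mean of 1.28. The windows and intervals past the limits after the removal were counted for chromosome 3 alone. No share over all autosomes is given beside them, so they do not show whether chromosome 3 stands apart.

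Probe by probe, the control array was subtracted from the tumor array and the difference was centred on its own autosomal median, which was -0.03 and so raised every difference by that amount. On this centred scale 15 intervals covering 26.2 Mb were called on chromosome 3, 10 losses and 5 gains. No share over all autosomes is given for intervals of the difference. These counts therefore do not show whether chromosome 3 stands apart. The widest loss, at chr3:19426-10397970, averaged -0.25 (734 probes, SD 0.50) with a score of 15.6, and before centring it averaged -0.28, with tumor and control means of -0.38 and -0.10. The second, at chr3:31945801-37885270, averaged -0.26 (479 probes, SD 0.43), and -0.28 before centring, from -0.35 and -0.07. A further loss near the first end, at chr3:17010751-19331620, averaged -0.26 (160 probes, SD 0.47), and -0.29 before centring, from -0.25 and 0.04. The gain with the highest score, 7.89, at chr3:82523876-84804970, averaged 0.25 (194 probes, SD 0.70), and 0.22 before centring, from 0.34 and 0.12. Without centring 11 losses and 5 gains were called, and of this gain only a stretch of 5 probes at chr3:82613601-82657120 was still called. After removal of the brightness trend the widest of the losses had means of -0.07 in the tumor and 0.03 in the control.

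Among the 18 autosomes, the median of chromosome 3 was the third lowest on the tumor array and the second lowest on the control array, and its brightness was the fourth highest on each. The tumor rank rests on small gaps, with -0.106 on chromosome 6, -0.100 on chromosome 3 and -0.097 on chromosome 17. On the control array chromosome 17 had -0.007. The 3 autosomes nearest to chromosome 3 in number of probes were chromosomes 7, 8 and 6. Chromosomes 6 and 7 had medians of -0.11 and -0.07 in the tumor and of -0.03 and -0.02 in the control, and their window SDs on the tumor array were 0.21 and 0.20, against 0.20 on chromosome 3. Chromosome 8, the dimmest autosome, had the highest median on each array, 0.11 in the tumor and 0.05 in the control. With the trend learned on all other autosomes removed, chromosomes 3, 6, 7 and 8 had tumor medians of -0.01, 0.002, -0.004 and 0.007. Chromosome 3 was then in 3rd place from the lowest on the tumor array, after -0.04 on chromosome 12 and -0.02 on chromosome 11. On the control array it was in 5th place. No test between chromosomes was run, since all come from the same 2 arrays.

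**Figure D5:**
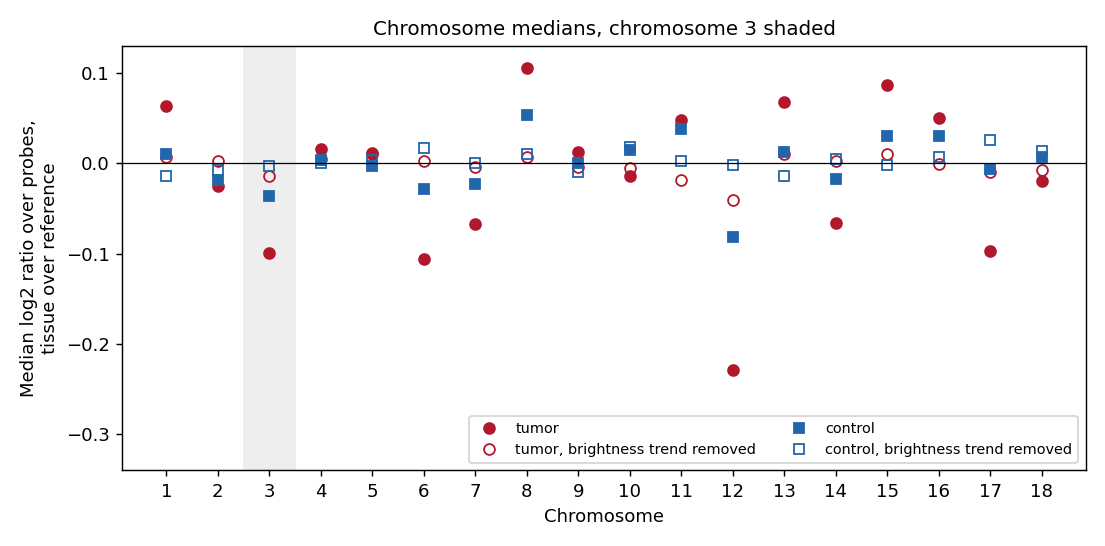
Median log2 ratio over probes of each autosome on the tumor array (circles) and the control array (squares), as computed (filled) and with the brightness trend of the other autosomes removed (open), with chromosome 3 shaded. Chromosome 3 lies at -0.10 and -0.04 as computed and at -0.01 and -0.003 after the removal.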

How the data were processed

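Tissue DNA (Cy3) and reference liver DNA (Cy5) were hybridised together by the authors, and spots were read with Agilent Feature Extraction 11.0.1.1. Each deposited array holds linear intensity columns: median spot and background signals, and processed signals after background subtraction and linear dye scaling, with surrogates where a signal was not above background. The deposited log10 ratio is red over green, and the series table was the same to within 0. The direction, tissue over reference, rests on the dyes in the labels.

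Log2 ratios of green over red processed signals were centred on the median of chromosomes 1 to 18, with neither loess nor quantile normalization. Windows held at least 5 probes. The noise used for scores was the derivative log2 ratio spread of the whole array, 0.400 (tumor) and 0.421 (control), and the limit on the mean acted within the search. The lowess fraction was 0.3, and window noise is the array noise over the square root of the probes per window. Named regions are the 5 lowest and 5 highest windows of each profile, both ends, blocks of 20 Mb and the leading intervals. Regions found after trend removal, and intervals with few or dim probes, were picked out after their values were seen. The chromosome, the genes named and the settings were chosen with earlier results of these data known. Interval calling and trend removal were tested on simulated data. The 19 alternatives changed centring, flags, signals, background correction, windows, limits or trend, and those without surrogate signals and without centring of the difference were chosen after seeing the data. Software was R 4.3.3 (limma 3.58.1) and Python 3.11.15 (matplotlib 3.10.9, statsmodels 0.14.6, numba 0.67.0, scipy 1.17.1, pandas 2.3.3, numpy 2.4.6).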

Additional observations from a re-analysis of the deposited data

How the results depend on the processing

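The cause of the shifts given here was not tested, except where the alternative's own construction sets it. Centring on the mode turned the control median to 0.019 and gave 0 control windows at or below -0.25, 1 at or above 0.25, and 7 control intervals covering 5.79 Mb. Probes well above background in both channels gave 1 low control window and 1 control interval. The deposited log ratio and the series table each gave 3 high tumor windows. Normexp gave 2 high tumor windows, 15 low control windows and 21 control intervals covering 44.2 Mb. Windows of 5 Mb, of which there are fewer, gave 5 low and 0 high tumor windows and 0 low control windows, and window means gave 0 low and 1 high control window. With the brightness trend removed, the tumor median was -0.014, with 1 low and 0 high tumor windows, 0 low control windows, 3 tumor intervals covering 1.28 Mb and 2 control intervals covering 0.071 Mb. A score of at least 12 left 3 tumor intervals covering 28.1 Mb and 0 control intervals covering 0 Mb. A mean of at least 0.1 gave 82.8 Mb on the tumor array and 32.0 Mb on the control array, and one of at least 0.4 gave 22.0 and 0.419 Mb. At least 10 probes left 2 control intervals. The limit on the mean after the search left 4 tumor intervals covering 6.95 Mb and 2 control intervals covering 0.248 Mb. Subtracting the control array gave 26.2 Mb, and 30.02 Mb without centring the difference. That alternative and the one without surrogate signals, which left 2 control intervals, were chosen after seeing the data. The counts under these alternatives have no share over all autosomes beside them, so they do not show whether chromosome 3 stands apart. No paired analysis was possible because each tissue has 1 array. The number of arrays and, in the tumor gains, reference signals of 41.4 to 72.0 limit the precision.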
